A study of Mus musculus with 6 samples.

Results

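The genes described here encode 8 members of the S100 calcium-binding protein family, S100a1, S100a4, S100a6, S100a8, S100a9, S100a10, S100a11 and S100a13, in Tregs sorted from lung tumors. They were found by gene symbol among the 15319 genes of the deposited RNA-Seq table, and all 8 were present. The members were selected on measured values of the same comparison, their CPM and fold changes in cKO against WT, so their differences between the groups are given as a description and no test of them is used. The table also held counts for 6 other S100 genes, which are described for comparison.

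S100 proteins are small calcium sensors with a pair of EF-hand loops, and most work as dimers. In most of them, though not in S100a10, calcium binding exposes a surface that docks partner proteins such as annexins or nonmuscle myosin. S100a4, S100a6, S100a10 and S100a11 act at the membrane and cytoskeleton, and in T cells several of them are known to be more abundant in effector and memory cells than in naive cells. S100a8 and S100a9 form calprotectin, which neutrophils and monocytes make in bulk and can release as an alarm signal that binds Tlr4 and Ager.

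Both groups were mice on a C57BL/6J background that carried Foxp3Yfp-cre, a Cre fused to yellow fluorescent protein that is expressed from the Foxp3 locus and therefore in Tregs. WT mice carried this allele alone, and cKO mice were Xrcc6flox/floxFoxp3Yfp-cre, with deletion of Xrcc6 (which encodes Ku70) restricted to cells that express Foxp3. Mice of 8 to 10 weeks received LLC, a line of mouse lung carcinoma cells, by tail vein injection, and tumor-infiltrating Tregs were taken after 21 days, giving 3 WT and 3 cKO libraries. Whether each library came from 1 animal or from pooled animals is not given in the sources used here, so p-values measure only the spread between these libraries.

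Total counts were 19032620 to 23159815 per library, so that 3 counts, the limit that a count of 0 allows, were worth 0.133 to 0.156 CPM (counts per 1000000 of the scaled library total). This limit and the intervals given for counts cover counting error only. Xrcc6 measured 20.9, 63.1 and 23.8 CPM in WT libraries and 5.24, 3.51 and 4.18 CPM in cKO libraries. WT replicate 2 stood apart, with 11513 genes detected against 14442 to 14737 in the other libraries, and each S100 fold change is therefore given with and without it. Values for the 3 libraries of a group are listed in the order of their replicate numbers. All 10 Treg markers checked were detected in every library. They were led by Tnfrsf4, Ctla4 and Cd3e, with 4 higher and 6 lower in cKO and a median log2 fold change of -0.14. Foxp3 itself was at 150 to 241 CPM in WT libraries and 189 to 282 CPM in cKO libraries. In bulk libraries such as these, fewer cells of a type and less RNA per cell cannot be told apart.

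All 8 genes lie on mouse chromosome 3 (GENCODE vM21, GRCm38) within 3053610 bases. S100a1 (90511034 to 90514392, minus strand) and S100a13 (90514435 to 90524581, plus strand) are arranged head to head with 42 bases between them. S100a4 (90603771 to 90606045, plus strand) is followed by S100a6 (90612882 to 90624181, plus strand) and S100a8 (90668978 to 90670035, plus strand). S100a9 (90692632 to 90695721) is on the minus strand, and S100a11 (93520488 to 93526287) and S100a10 (93555080 to 93564643), both on the plus strand, lie farther along, S100a11 starting 2824766 bases after S100a9. S100a4 overlaps the annotated gene Gm42674 on the same strand, with 302 exonic bases in common. Of the stretches of 50 bases in its exons, 47.4% also occur in Gm42674, and 41.1% of those of S100a11 occur in 3 other genes, Gm12854 sharing the most. For these 2 members reads could have been divided between genes if the counting annotation held the other genes, and their levels are uncertain to that extent. Gm42674 is not among the genes with deposited counts. The other 6 members shared no such stretch.

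Sequences upstream of neighbouring members are shown because S100a4 and S100a6 shared a library profile while the adjacent S100a8 and S100a9 did not. They are from RefSeq (GRCm38.p6), printed 5′ to 3′ on the strand of the gene, and capitals mark matches to the motifs named after them. The last is the whole stretch between S100a1 and S100a13, on the plus strand.
S100a4 (chr3:90603520-90603769, plus strand): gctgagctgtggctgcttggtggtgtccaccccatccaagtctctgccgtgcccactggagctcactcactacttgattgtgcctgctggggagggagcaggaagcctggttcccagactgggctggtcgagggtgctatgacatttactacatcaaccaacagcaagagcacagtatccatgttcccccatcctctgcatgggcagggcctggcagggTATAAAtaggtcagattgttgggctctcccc
S100a6 (chr3:90612644-90612881, plus strand): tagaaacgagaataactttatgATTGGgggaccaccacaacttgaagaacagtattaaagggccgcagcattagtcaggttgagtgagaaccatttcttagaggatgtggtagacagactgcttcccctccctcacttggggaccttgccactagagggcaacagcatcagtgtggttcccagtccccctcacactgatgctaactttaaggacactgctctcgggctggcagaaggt
S100a8 (chr3:90668821-90668977, plus strand): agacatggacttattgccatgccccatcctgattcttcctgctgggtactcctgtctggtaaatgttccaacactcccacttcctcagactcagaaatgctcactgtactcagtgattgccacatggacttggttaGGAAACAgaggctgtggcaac
S100a9 (chr3:90695722-90695971, minus strand): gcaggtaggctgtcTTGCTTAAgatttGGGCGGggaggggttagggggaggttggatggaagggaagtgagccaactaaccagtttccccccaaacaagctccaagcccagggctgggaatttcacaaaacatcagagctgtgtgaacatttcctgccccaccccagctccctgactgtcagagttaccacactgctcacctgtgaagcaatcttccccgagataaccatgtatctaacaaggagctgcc
S100a1 to S100a13 (chr3:90514393-90514434, plus strand): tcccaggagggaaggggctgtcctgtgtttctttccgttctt

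RefSeq promoters were at hand for 7 of the 8 members, and the 250 bases before each start were searched on both strands among 32536 promoters. The TATA box (TATAAA) was found before S100a4 and S100a8, 31 and 30 bases ahead of the RefSeq start, and in 12.3% of all promoters. The S100a8 match lies downstream of the printed stretch. S100a9 held a C/EBP motif (TTGCNNAA, 9.57% of promoters) and a GC box (GGGCGG, 33% of promoters), and S100a8 held a forkhead motif (TGTTTNC, 17.8% of promoters). S100a6 held a CCAAT box (CCAAT, 33.8%). S100a11 held the AP-1 motif (TGANTCA, 6.73%) at 2 positions, and also the GC box. The E-box (CANNTG), which is not capitalised in the sequences, was in 5 of the 7 and in 66.2% of all promoters, and the PU.1 core AGAGGAAG (3.68%) was in none of the 7. The shared 42 bases of S100a1 and S100a13 held no match to these letters. None of these motifs overlapped another in the printed sequences. A match describes the letters and is not evidence of binding.

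Tregs from these tumors carried the members at very different levels, with S100a11, S100a10, S100a4 and S100a6 far above the rest. Per kb of exons, S100a11, an annexin A1 partner at the membrane, was at 1278 ± 600 CPM per kb in the WT group and 1428 ± 166 in the cKO group (SD, n = 3). S100a10, which forms a tetramer with annexin A2, followed at 595 ± 317 and 642 ± 192 CPM per kb. S100a4, which binds nonmuscle myosin, was at 377 ± 237 and 425 ± 166 CPM per kb, and S100a6, which binds the calcyclin-binding protein Cacybp, at 222 ± 89.2 and 249 ± 80.8 CPM per kb (SD, n = 3).

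The other 4 members formed the lower end of the order. S100a13, which takes part in the unconventional export of Fgf1 and Il1a, was at 67.5 ± 37.6 CPM per kb in the WT group and 87.5 ± 32.2 in the cKO group. S100a1, best known as a calcium regulator in muscle, was at 9.49 ± 4.06 and 9.0 ± 1.81 CPM per kb. S100a8 was at 5.0 ± 4.87 and 6.28 ± 1.33 CPM per kb and S100a9 at 0.194 ± 0.200 and 2.79 ± 0.787 CPM per kb (SD, n = 3). The order of the group means was the same in both groups and also when the longest transcript was used as the length.

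Between neighbours in this order, the ranges over the 6 libraries overlapped for every pair except S100a6 above S100a13 and S100a13 above S100a1. Within single libraries the order was steadier. Each member was above the next in 6 of 6 libraries, with the exception of S100a4 over S100a6, which held in 5 of 6 and was turned around in WT replicate 2. Together the 8 members held 0.110% to 0.284% of the counts of a library. S100a10 and S100a11 gave most of these counts.

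**Figure D1:**
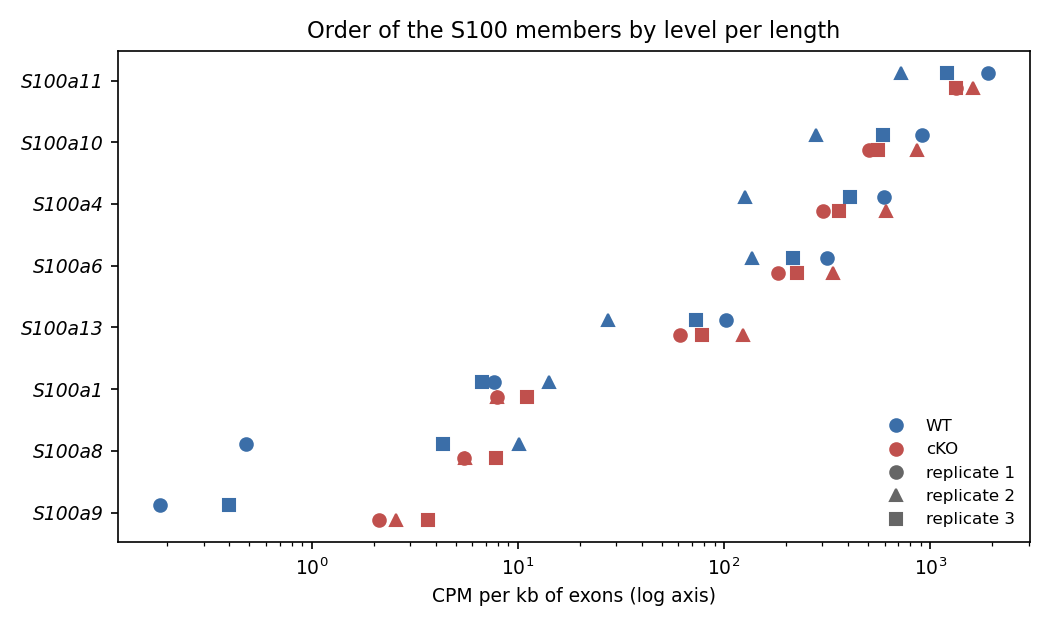
Level of each S100 member in CPM per kb of exons on a log axis, WT libraries in blue and cKO libraries in red, with 1 symbol shape per replicate number. Members are sorted by the WT mean, from 1278 CPM per kb for S100a11 to 0.194 for S100a9, and the S100a9 value of WT replicate 2, at 0, cannot be drawn.

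The 4 abundant members at the membrane and cytoskeleton overlapped between the groups, and so did S100a13. S100a4 measured 349, 74.0 and 237 CPM in WT libraries and 175, 358 and 211 CPM in cKO libraries. Means were 220 ± 138 CPM over WT libraries and 248 ± 96.9 CPM over cKO libraries (SD, n = 3). As a log2 fold change, cKO relative to WT, S100a4 was at 0.17 (standard error 0.53), and at -0.24 (standard error 0.30) without WT replicate 2. The lowest and the highest library of S100a4 differed by 4.84-fold, far more than the groups did.

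S100a6 measured 430, 186 and 295 CPM in WT libraries and 249, 463 and 308 CPM in cKO libraries. Its log2 fold change was 0.16 (standard error 0.35), and -0.09 (standard error 0.28) without WT replicate 2. The top library was cKO replicate 2, closely followed by WT replicate 1, and the bottom library was WT replicate 2, as for S100a4.

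S100a10 measured 1108, 339 and 718 CPM in WT libraries and 613, 1045 and 676 CPM in cKO libraries. Its log2 fold change was 0.11 (standard error 0.42), and -0.23 (standard error 0.28) without WT replicate 2. Its partner annexin A2 (Anxa2) measured 325, 123 and 198 CPM in WT libraries and 198, 274 and 202 CPM in cKO libraries. Anxa2 thus had its highest value in the same library as S100a10, WT replicate 1, and its lowest in WT replicate 2.

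S100a11 measured 977, 368 and 615 CPM in WT libraries and 682, 828 and 680 CPM in cKO libraries. Its log2 fold change was 0.16 (standard error 0.34), and -0.13 (standard error 0.23) without WT replicate 2. All 3 cKO values lay between the WT values. The SD of S100a11 was 306 CPM over WT libraries against 84.8 CPM over cKO libraries.

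S100a13 measured 73.0, 19.6 and 52.2 CPM in WT libraries and 43.7, 88.2 and 55.9 CPM in cKO libraries. The log2 fold change was 0.37 (standard error 0.46), and 0.00 (standard error 0.28) without WT replicate 2. Its head-to-head neighbour S100a1 measured 5.31, 9.82 and 4.64 CPM in WT libraries and 5.52, 5.52 and 7.69 CPM in cKO libraries. S100a1 was highest in the library in which S100a13 was lowest, WT replicate 2. The ratio of S100a13 to S100a1 counts was 2.0 in that library and 7.27 to 16 in the others. The log2 fold change of S100a1 was -0.08 (standard error 0.46), and 0.33 (standard error 0.26) without that library.

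**Figure D2:**
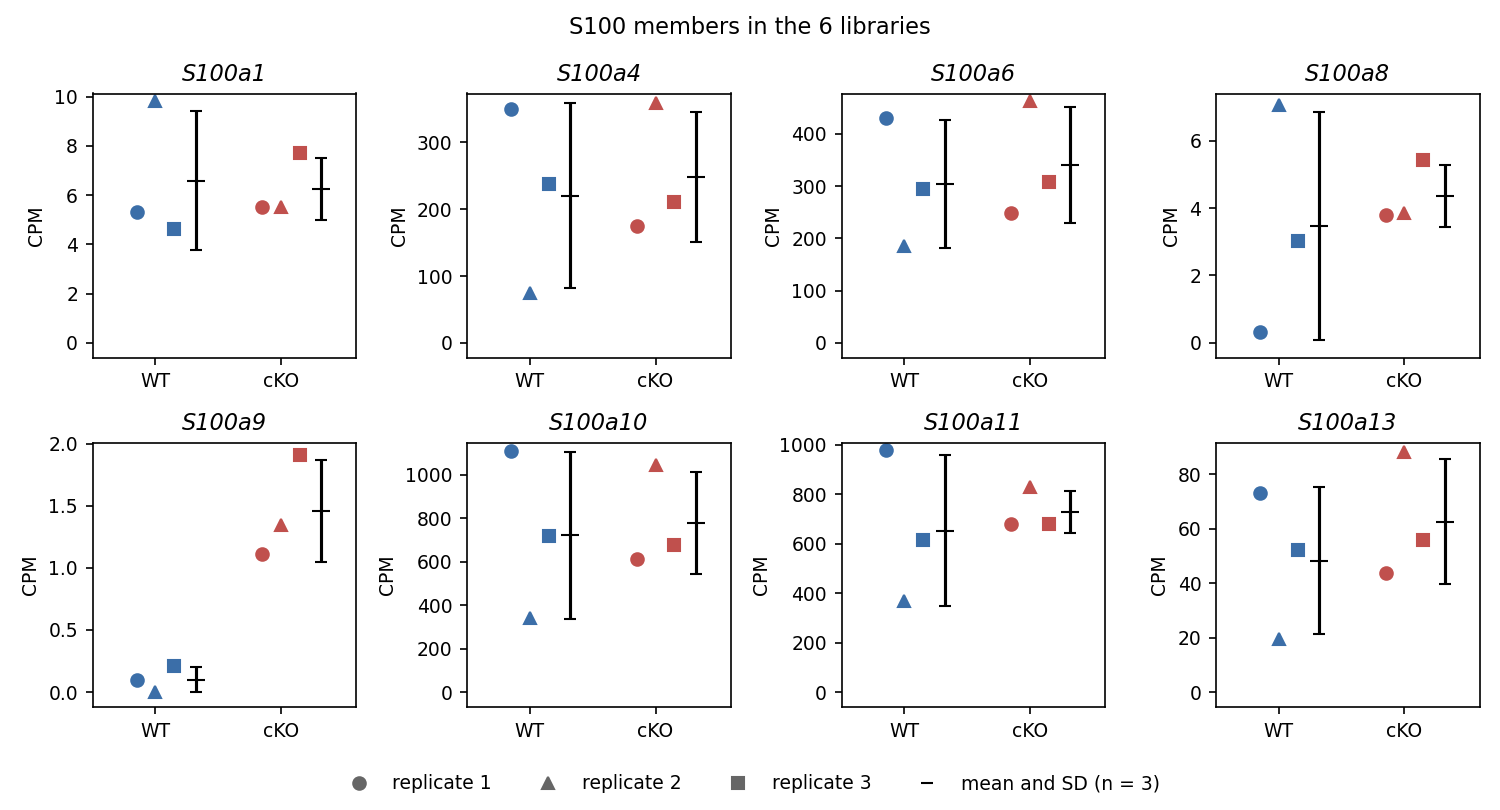
CPM of each S100 member in the 3 WT (blue) and 3 cKO (red) libraries, with symbol shapes for the replicate numbers and bars for the mean and SD (n = 3). The groups overlap for every member except S100a9, whose cKO values are 1.11 to 1.91 CPM against 0 to 0.208 CPM in the WT group.

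The calprotectin genes were the least abundant members per kb. S100a9 had 2, 0 and 4 counts in the WT libraries (exact Poisson 95% intervals 0.242 to 7.22, up to 3.69, and 1.09 to 10.2). In the cKO libraries it had 24, 28 and 43 (15.4 to 35.7, 18.6 to 40.5 and 31.1 to 57.9). Every cKO library was above every WT library, which is a description only, because the members were chosen on this contrast. The intervals leave out the variation between libraries. The fitted log2 fold change was 3.79 (standard error 1.15), and 3.23 (standard error 0.65) without WT replicate 2. It rests on 6 counts in the whole WT group, and it was 2.99 with a prior count of 2 in place of the default.

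S100a8, its partner in calprotectin, had 7, 150 and 58 counts in WT libraries and 82, 80 and 122 in cKO libraries. In CPM these were 0.335, 7.05 and 3.02 in the WT group and 3.80, 3.84 and 5.43 in the cKO group. The WT libraries thus held both the lowest and the highest value, which differed by 21.1-fold, while the cKO libraries were close to each other. The log2 fold change was 0.33 (standard error 0.93), and 1.39 (standard error 0.69) without WT replicate 2. Without that library every cKO value of S100a8 was above both WT values.

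The share of S100a9 in the summed counts of S100a8 and S100a9 was 22.6%, 25.9% and 26.1% in cKO replicates 1, 2 and 3. The exact Clopper-Pearson 95% intervals were 15.1% to 31.8%, 18.0% to 35.3% and 19.6% to 33.5%, and these intervals overlapped. In WT replicate 1 it was 22.2%, from 9 counts in all (2.81% to 60.0%), and could not be told from the cKO values at this depth. In WT replicate 3 it was 6.45% (1.79% to 15.7%). WT replicate 2 had 0 of 150 counts from S100a9, so its S100a8 counts came without detected S100a9. By counting error alone this allows a share of up to 2% by the limit of 3 counts (the exact interval reaches 2.43%). That library detected 11513 genes against 14442 to 14737 in the others. Ly96, named after its values were seen, had 0 counts there and 138 to 270 in the others. The share in WT replicate 2 is therefore uncertain beyond these limits.

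**Figure D3:**
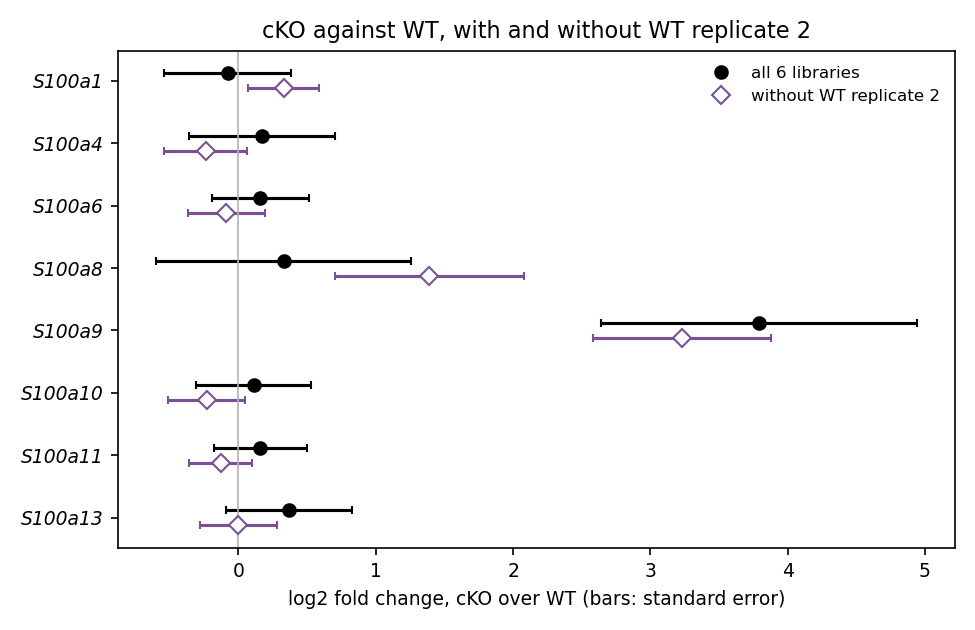
Fitted log2 fold change of cKO over WT for each S100 member with its standard error, over all 6 libraries (black circles) and without WT replicate 2 (open diamonds). S100a4, S100a6, S100a10 and S100a11 go from small positive to small negative values without that library, and S100a9 stays at 3.23 or more in both fits.

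Over all 6 libraries 7 of the 8 members had higher fitted values in the cKO group and 1, S100a1, had a lower value, with a median log2 fold change of 0.17. Over all 15315 genes with counts the median was 0.04, with 8343 higher and 6972 lower. Without WT replicate 2 the split of the members was 4 and 4 and their median was -0.04, against -0.01 over all genes. No direction common to the members was therefore left once 1 library was set aside.

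edgeR's quasi-likelihood test gave an adjusted p under 0.05 to 0 of the 8 members, and to 0 of 15315 genes (0%). At an unadjusted p under 0.05 it gave 1 member, S100a9, with 1.81% of all genes called, and DESeq2 gave 0 members at an adjusted p under 0.05, with 0.0131% of genes called. The study's limits, an unadjusted p under 0.05 and a log2 fold change of at least 1, were met by S100a9 alone on the higher side. Among all genes these limits were met on that side by 0.744% with edgeR and 0.255% with DESeq2. Without WT replicate 2, edgeR called 0 members and 0.00654% of genes at an adjusted p under 0.05, and 461 genes at an unadjusted p under 0.05, while DESeq2 called 3 genes at an adjusted p under 0.05, of which 0 were members. S100a9 was the only member whose cKO libraries were all above the WT libraries, which held for 5.01% of all genes, and 0 members were lower in this way, against 3.23% of genes. Without WT replicate 2 the members above were S100a1, S100a8 and S100a9, and 8.48% of all genes were. The rule that chose the members used this contrast, and nothing is read from these counts.

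Library profiles split the family in another way than genotype. S100a4, S100a6, S100a10, S100a11 and S100a13 were all lowest in WT replicate 2, and their 2 highest libraries were always WT replicate 1 and cKO replicate 2. Of the 11568 genes with a mean of at least 1 CPM, 43.2% were lowest in WT replicate 2, and 12.1% had those 2 libraries on top. S100a1 and S100a8 were instead highest in WT replicate 2, as were 36.1% of these genes, with cKO replicate 3 in second place for both.

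The fold between the highest and the lowest library of these 5 members shrank when WT replicate 2 was set aside. It went from 4.84 to 2.04 for S100a4, from 4.49 to 2.02 for S100a13 and from 3.27 to 1.81 for S100a10. For S100a11 it went from 2.66 to 1.59 and for S100a6 from 2.49 to 1.86. S100a8 kept a 16.2-fold range, because its lowest library was WT replicate 1. The count ratio of S100a4 to S100a6 was 0.685 to 0.813 in the other 5 libraries and 0.398 in WT replicate 2, so these 2 genes kept nearly 1 proportion to each other everywhere but there.

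**Figure D4:**
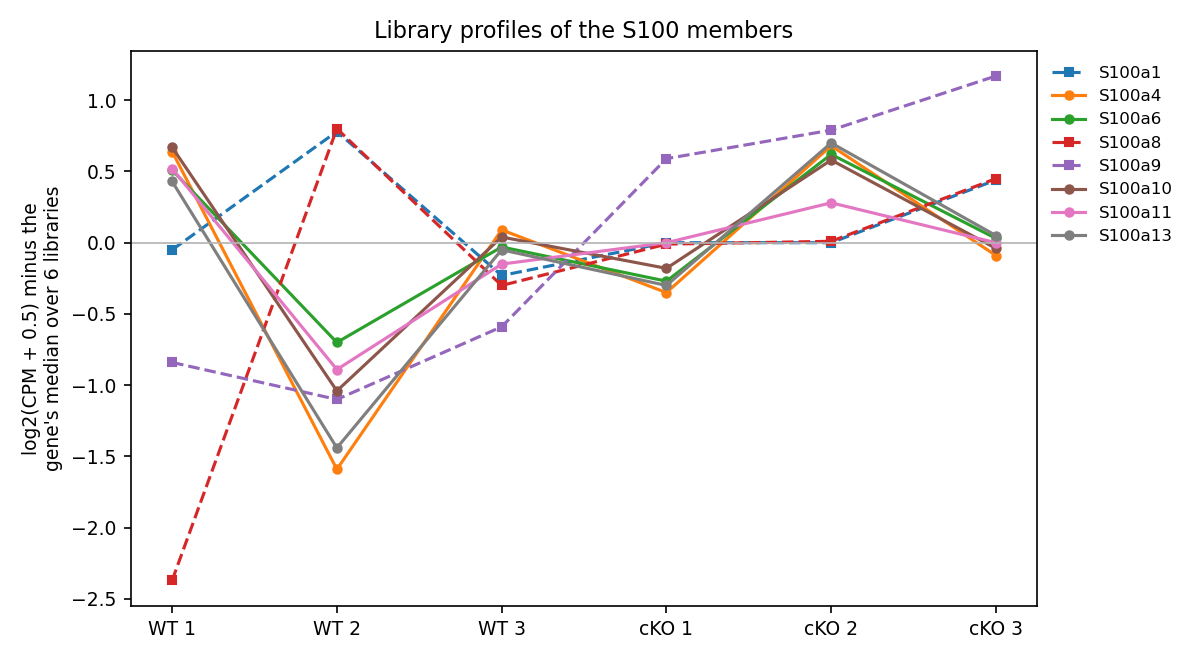
log2(CPM + 0.5) of each S100 member in the 6 libraries, minus the member's own median. S100a4, S100a6, S100a10, S100a11 and S100a13 (solid lines) dip to between -0.70 and -1.59 in WT replicate 2 and peak in WT replicate 1 and cKO replicate 2, while S100a1 and S100a8 (dashed) reach 0.78 and 0.80 in WT replicate 2.

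S100 transcripts are short, and the same library pattern ran with transcript length over all genes. Length was known for 97.5% of the genes with a mean of at least 1 CPM, and the bins were chosen after the data were seen. Among the 228 genes whose longest transcript was under 800 bases, which include 7 of the members (S100a9 has a mean under 1 CPM), 65.4% were lowest in WT replicate 2. In the same bin 53.9% had WT replicate 1 and cKO replicate 2 as the 2 highest libraries. Among the 1313 genes of 6400 bases or more these shares were 36.6% and 1.83%. The median deviation of the short genes was -0.76 in WT replicate 2, 0.22 in WT replicate 1 and 0.28 in cKO replicate 2.

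S100a4, at -1.59 in WT replicate 2, and S100a13, at -1.44, lay below that median, as did S100a10 at -1.04 and S100a11 at -0.89, while S100a6, at -0.70, lay slightly above it. S100a1 and S100a8 are also under 800 bases but lay at 0.78 and 0.80 in that library. The part of transcript length in the profiles of the members was not tested.

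**Figure D5:**
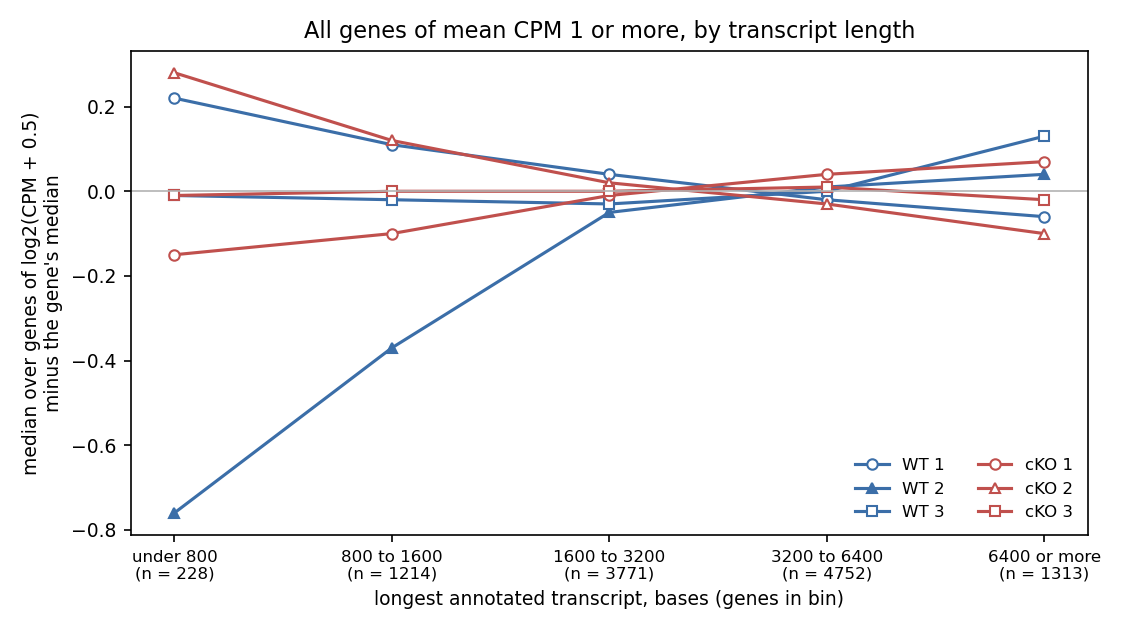
Median deviation of log2(CPM + 0.5) from each gene's own median, by bins of transcript length, for each library (WT blue, cKO red, WT replicate 2 filled). In genes under 800 bases WT replicate 2 is at -0.76 while WT replicate 1 and cKO replicate 2 are at 0.22 and 0.28. The libraries lie between -0.03 and 0.04 at 3200 to 6400 bases. At 6400 bases or more they spread again, from -0.10 in cKO replicate 2 to 0.13 in WT replicate 3.

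Genes with profiles most like each member were found by the root mean square difference of centered log2(CPM + 0.5) over the 6 libraries, among 11568 genes. For S100a4 they were Lgals1 (0.0858), Anapc13 and Fancf, for S100a6 Cd3d (0.0771), Isg15 and Dynlrb1, and for S100a10 Cops9 (0.0524), Cnih4 and Ndufa13. For S100a11 they were Psmb5 (0.0372), Ech1 and Polr2j, and for S100a13 Uqcrh (0.0563), Smim24 and Rpl27. Lgals1, which encodes galectin-1, measured 909, 198 and 532 CPM in WT libraries and 425, 851 and 540 CPM in cKO libraries, and so had the same dip in WT replicate 2 as S100a4.

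For the members outside this set the nearest profiles were other genes. Those of S100a1 were Slc41a3, Tcn2 and Habp4. Those of S100a8 were Ccl9 (0.238), Klf2 and Acvrl1, and those of S100a9 were Mgp (0.316), Khdc1a and Snn. These differences were larger than for the other members. The calprotectin genes also varied more about their own means, by a root mean square of 1.02 for S100a8 and 0.877 for S100a9. It was 0.344 to 0.760 for the other members, so the larger differences do not show looser matches. Among the members themselves the nearest pairs were S100a4 with S100a13 (0.134) and S100a6 with S100a10 (0.163). S100a8 and S100a9 differed by 1.09, although their proteins form 1 complex, and S100a4 and S100a8 were farthest apart at 1.62.

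T cell state lists gave sums with similar library orders. The 17 effector and tissue T cell motility genes, led by Actg1, Tmsb4x and Cfl1, summed to 24560, 14190 and 20260 CPM in the WT libraries and to 17660, 25530 and 20720 CPM in the cKO libraries. Their sum was highest in cKO replicate 2 and WT replicate 1 and lowest in WT replicate 2, the same order of all 6 libraries as for S100a6. Most of the sum came from Actg1 and Tmsb4x, at 8606 and 5618 CPM in WT replicate 1 and 4543 and 3100 CPM in WT replicate 2. WT replicate 2 was the lowest library for 10 of the 17 genes, so the order is not that of every gene. The list had 13 members higher in cKO and 4 lower and a median log2 fold change of 0.14, which was -0.00 without WT replicate 2.

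The 12 naive T cell genes, led by Klf2, Ccr7 and S1pr1, summed to 1790, 4862 and 3774 CPM in the WT libraries and to 3436, 3956 and 4862 CPM in the cKO libraries. Their sum was lowest in WT replicate 1 and highest in WT replicate 2 and cKO replicate 3, as was true of S100a8. Klf2 alone gave 1686 CPM of the sum in WT replicate 2. Of the single genes, only Lef1, Klf2, Satb1 and Actn1 were highest in that library, and Dapl1 had 0 counts there. Lef1, Satb1, Actn1 and Dapl1 were named after their values were seen. The list had 11 members higher and 1 lower, with a median log2 fold change of 0.21, and 0.56 without WT replicate 2. The part of cell state in the S100 profiles was not tested.

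Of 16 genes for proteins that S100 members bind, 15 had counts, 11 were higher in cKO and 4 lower, and their median log2 fold change was 0.17, or 0.00 without WT replicate 2. The 3 most abundant were Anxa6, Myh9 and Ahnak. Ahnak, the scaffold that binds S100a10 with annexin A2, measured 398, 548 and 482 CPM in WT libraries and 379, 363 and 357 CPM in cKO libraries, a log2 fold change of -0.38 (standard error 0.17). The cKO values of Ahnak were all below the WT values, unlike those of S100a10 and Anxa2, and it did not pass adjustment in edgeR's test.

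Myh9, the heavy chain of nonmuscle myosin that S100a4 binds, had a log2 fold change of -0.18, and Anxa6 one of 0.28, which was 0.06 without WT replicate 2. Cacybp, the partner of S100a6, measured 119, 196 and 115 CPM in WT libraries and 166, 112 and 100 CPM in cKO libraries. Cacybp was highest in the library where S100a6 was lowest. Il1a, a cargo of S100a13, measured 0.526, 1.79 and 3.70 CPM in WT libraries and 3.29, 3.55 and 3.65 CPM in cKO libraries, a log2 fold change of 0.80, with overlapping groups. Anxa2, Cacybp and Il1a were named after their values were seen, as partners of described members.

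Receptors for extracellular S100 proteins were present at low to high levels. The 3 most abundant of 8 were Cd69, Emb and Bsg, and 6 of the 8 were higher in cKO and 2 lower, with a median log2 fold change of 0.12. Without WT replicate 2 there were 7 higher and 1 lower and the median was 0.32. Bsg, a receptor of S100a9, measured 195, 73.5 and 141 CPM in WT libraries and 143, 165 and 146 CPM in cKO libraries. Tlr4 and Ager, the receptors best known for calprotectin, were at no more than 5.08 CPM in any library. Both were highest in WT replicate 2, as S100a8 was, and they were named after their values were seen.

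Other EF-hand sensors served as a comparison within the calcium-binding superfamily. Of 14 other EF-hand genes, with Lcp1 and Myl12b among the most abundant, 10 were higher in cKO and 4 lower with a median log2 fold change of 0.04. Without WT replicate 2 there were 3 higher and 11 lower and the median was -0.07. WT replicate 2 was the lowest library for 9 of the 14. edgeR called 0 of the 178 genes with counts in the 15 lists at an adjusted p under 0.05, and DESeq2 called 0. At an unadjusted p under 0.05, edgeR gave 9 higher and 1 lower, while over all genes it gave 144 higher and 133 lower, or 1.81% in all.

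The other S100 genes in the table were near the limit of detection, with 1 exception in 1 library. S100a3, which lies on chromosome 3 just before S100a4, had 15, 425 and 19 counts in WT libraries and 20, 27 and 29 in cKO libraries. WT replicate 2 thus had 20 CPM of S100a3 against 0.717 to 1.3 CPM elsewhere. The log2 fold change was -2.62, and 0.46 without that library. S100a4, its nearest downstream neighbour, was lowest in the library where S100a3 was highest. S100a3 shares 144 exonic bases with Gm42674 on the same strand, and S100a4 shares 302. Gm42674 itself is not among the genes with deposited counts, so whether reads of either gene were divided with it cannot be told.

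S100a2, which lies inside S100a3 on the same strand, had 2, 11 and 3 counts in the WT libraries and 0 in every cKO library. S100a5 had 7, 0 and 1 counts in the WT libraries and 6, 4 and 7 in the cKO libraries. S100a7a had 0 counts in every WT library and 2, 1 and 2 in the cKO libraries, all within the limit of 3 counts, so that no fold is given. S100a14 had at most 2 counts and S100g at most 5 in any library.

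S100a8 and S100a9 are also defining genes of neutrophils, so the other neutrophil markers are given beside them. Of 24 neutrophil markers (other than these 2 genes), 19 had counts, 14 were higher in cKO and 5 lower, with a median log2 fold change of 0.35, and 0.33 without WT replicate 2. None passed adjustment in edgeR's test, and 4 had an unadjusted p under 0.05, against 1.81% of all genes. These 4, Retnlg, Ngp, Lcn2 and Cd177, had at most 1 count in any WT library. Retnlg, a resistin-like protein of neutrophils, had 0 counts in every WT library and 19, 13 and 34 counts in the cKO libraries. Ngp, a neutrophil granule protein, had 0 counts in every WT library and 8, 8 and 7 in the cKO libraries.

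Lcn2, an iron-scavenging granule protein, had 1, 0 and 0 counts in the WT libraries and 12, 16 and 11 in the cKO libraries. In these 3 genes, named after their values were seen, every cKO library was above every WT library, as in S100a9 and in 5.01% of all genes. Cd177 was at 0 in every WT library and at 1, 2 and 7 counts in the cKO libraries, 2 of which are within the limit of 3 counts. With Cd177, every cKO library was above every WT library in 4 of the 19 markers with counts, and below in 0. Cxcr2 measured 7.55, 9.54 and 10.4 CPM in WT libraries and 7.84, 5.72 and 4.80 CPM in cKO libraries. The log2 fold change of Cxcr2 was -0.58, with Csf3r at -0.08, Mmp8 at 0.19 and Ltf at 0.17, all with overlapping groups. Cd177 and these 4 genes were also named after their values were seen. The number of markers detected was 14, 6 and 14 in the WT libraries and 17, 19 and 19 in the cKO libraries.

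The neutrophil list as a whole overlapped between the groups. The summed level of the whole list ranged from 120 to 278 CPM over WT libraries and from 150 to 216 CPM over cKO libraries, most of it from Cxcl2, Chil3 and Mmp9, which other cells also express. Ly6g, the marker that defines neutrophils in mice, was at 1, 0 and 0 counts in the WT libraries and at 0, 1 and 3 in the cKO libraries. Camp, Elane, Mpo, Stfa2l1 and Mrgpra2b were not analysed here. The part of neutrophil RNA in the S100a9 difference was not tested.

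Markers of other cells that could be in the sort were also detected. The 22 monocyte, macrophage and dendritic cell markers, led by Lyz2, Apoe and Plac8, summed to 570 to 1091 CPM over WT libraries and 482 to 1729 CPM over cKO libraries. In cKO replicate 3 this sum was near that of all 8 S100 members, 1944 CPM. Among these markers 15 were higher and 7 lower, with a median log2 fold change of 0.58. The lowest sum was in cKO replicate 1, where S100a9 had 24 counts, and the highest in cKO replicate 3, where S100a9 was highest at 43 counts. Their part in the S100a8 and S100a9 values was not tested.

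Endothelial markers (9 of 10 with counts, led by Pecam1, Egfl7 and Cdh5) were all higher, with a median log2 fold change of 1.31. They summed to 60.9 to 80.8 CPM over WT libraries and 71.3 to 95.9 CPM over cKO libraries. Pecam1 gave nearly all of this, 60.3 to 79.8 CPM in WT and 69.1 to 92.9 CPM in cKO libraries, at a log2 fold change of 0.09. The other endothelial markers had at most 26 counts in any library. In 3 of the 9, every cKO library was above every WT library, as in 5.01% of all genes. These 3 were Vwf, Ramp2 and Plvap, named after their values were seen, with at most 4 counts in any WT library. Stromal markers (11 of 12, led by Mgp, Col1a1 and Fbln1) summed to at most 9.56 CPM in any library. They include Mgp, the gene with the profile most like that of S100a9, which measured 0.287, 0 and 0.990 CPM in WT libraries and 1.72, 2.26 and 3.07 CPM in cKO libraries. The median log2 fold change of the stromal markers was 0.64, and 0.25 without WT replicate 2.

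Red blood cell markers (6 of 9 with counts, led by Car2, Hbb-bs and Hba-a2) summed to 17.4 to 47.0 CPM and had the largest median log2 fold change of the lists, 2.58, and 2.01 without WT replicate 2. Hba-a2, an alpha globin, had 4, 0 and 54 counts in WT libraries and 90, 222 and 133 in cKO libraries, and Hbb-bs, a beta globin, had 5, 0 and 56 against 76, 231 and 144. In Hba-a2 and Hbb-bs every cKO library was above every WT library, as in S100a9 and in 5.01% of all genes. The globins Hba-a1 and Hbb-bt, named after their values were seen, had overlapping groups, and Car2 had a log2 fold change of -0.79. B and plasma cell markers (led by Cd79b, Jchain and Cd79a) summed to 12.5 to 65.0 CPM, with a median of 0.78, and 1.74 without WT replicate 2. Lung epithelial markers (led by Hopx, Scgb1a1 and Epcam) summed to 97.2 to 160 CPM, with a median of 0.11, and -0.25 without WT replicate 2. CD8 T and NK cell markers (led by Xcl1, Cd8b1 and Prf1) summed to 17.0 to 78.2 CPM, with a median of 0.14. The parts of these cells in the S100 values were not tested.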

How the data were processed

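RNA-Seq libraries of tumor-infiltrating Tregs from 3 WT and 3 cKO samples were used. Values deposited by the authors were expected counts for each gene symbol, not normalized, and the submitters' processing notes name Bowtie2 (version 2.3.4.3), RSEM (version 1.3.1) and GRCm38. The libraries were made with a SMARTer mRNA kit. The annotation used for counting and whether strand was used are not given in the sources used here. Expected counts were rounded to whole numbers, scaled by TMM, and tested with edgeR (version 4.0.16, quasi-likelihood test, p-values adjusted by Benjamini-Hochberg over 15315 genes with 1 or more counts) in R (version 4.3.3). limma (version 3.58.1) and DESeq2 (version 1.42.0) were also used, DESeq2 as an alternative test. The script was tested on simulated counts. No replicates were alike within sampling noise, so each counted as 1. Not every pair of same-number libraries varied together, so no pairing was used.

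The members and all lists were chosen with earlier results of these data known. Named genes were the S100 genes of the table, the 3 most abundant genes of each list, up to 5 genes per direction of a list past an adjusted p of 0.05 (there were none), the 3 genes with the most similar library profile for each member whose log2(CPM + 0.5) ranged over more than 1, Xrcc6, and genes overlapping a member. Genes named outside this rule are marked as such. For 1 gene within it no result is reported here. Lengths and positions were from GENCODE vM21 and promoters from RefSeq. Alternatives were median-of-ratios scaling, library totals, filterByExpr (minimum count 10), a prior count of 2, each library left out, a block for the replicate number, and transcript length in place of exon length. DESeq2 without WT replicate 2 and the length bins were added after seeing the data.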

Additional observations from a re-analysis of the deposited data

How the results depend on the processing

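The number of genes at an adjusted p under 0.05 was 0 with edgeR over all 6 libraries, 2 with DESeq2, and 3 with DESeq2 without WT replicate 2, a fit added after seeing the data. With each library left out in turn, edgeR gave 0 to 1. The number of members higher in the cKO group was 7 with all libraries, 4 with DESeq2 without WT replicate 2, and 4 to 8 when each library was left out. Their median log2 fold change was 0.13 to 0.29 under the other scalings, the filter, DESeq2 and the replicate block, and -0.04 to 0.56 when each library was left out, with 0.56 without WT replicate 1 and 0.02 without cKO replicate 2. Leaving out WT replicate 1 or 3 also moved the median of all genes to 0.109 and 0.101.

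Of 104 values of single members under the alternatives, 5 moved by more than the spread between replicates, all for S100a9. This does not show that the other members were steadier. The spread was each member's pooled SD of the log2 values used for the library profiles, 1.16 for S100a8 and 0.27 for S100a9. The log2 fold change of S100a8, 0.33 with all libraries and 1.39 without WT replicate 2, thus did not count as moved. The constant added to CPM narrows the spread of a gene with few counts such as S100a9, whose fitted standard error was 1.15. Its log2 fold change was 4.11 with the replicate block, 4.78 without WT replicate 3, 3.23 without WT replicate 2, 3.27 with DESeq2 without WT replicate 2, and 2.99 with a prior count of 2. The replicate numbers mark no known shared animal or day. The correlations of same-number libraries were 0.114, -0.0941 and 0.211 over 11568 genes, so not every library matched its own number best, and the block moved the genes at an unadjusted p under 0.05 from 277 to 85. Depth limits S100a9 most, with 6 counts in the WT group.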
